A study of Rattus norvegicus with 20 samples.

Results

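Cytochrome P450 enzymes of the Cyp2 family are heme proteins of the endoplasmic reticulum that insert oxygen into steroids, fatty acids and foreign compounds, with electrons passed on by the reductase Por and by cytochrome b5. The 7 genes described here, Cyp2c11, Cyp2c13, Cyp2a2, Cyp2a1, Cyp2c22, Cyp2c23 and Cyp2e1, are transcribed in untreated rat liver, unlike the Cyp2b genes that drugs induce through the receptor CAR. In the rat, Cyp2c11, Cyp2c13 and Cyp2a2 belong to the male-specific P450s set by the pulsatile growth hormone of adult males, and their levels rise around puberty. Their messages were read as probe sets annotated with one of these 7 symbols, and each of the 7 genes had 1 such probe set. An eighth probe set is annotated to both Cyp2a1 and Cyp2a2 and was kept apart. The 7 genes are among 14217 genes with a probe set of their own and 11576 genes that passed the filter on low values, which all 7 passed on 20 of 20 arrays.

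The animals were male Sprague-Dawley rats, and total RNA of each liver was labelled and hybridised to its own Affymetrix array. The rats arrived at 4 weeks of age, had 7 d on a commercial diet, and then ate a lignan-free diet or one with 0.2% of sesamin, episesamin or sesamolin for 15 d. Each diet had 7 rats, of which 5 were arrayed, the heaviest and the lightest being left out. Sesamin and episesamin are epimers at one carbon that bears a methylenedioxyphenyl group, and sesamolin has an added ether oxygen between such a group and the furofuran core. Mean raw intensity ranged from 159 to 271 per array, and 6 arrays lay below 200. The actin 3' to 5' signal ratio ranged from 1.92 to 2.69. Neither was shown to differ between a lignan group and the lignan-free group (exact permutation, two-sided, lowest p = 0.151 and 0.23, 5 arrays per group). Mean raw intensity differed from the lignan-free group by -10.6, -33.4 and -25.5 with sesamin, episesamin and sesamolin. The arrays below 200 were replicate 3 of lignan-free, 2 of sesamin, 3 and 4 of episesamin, and 2 and 5 of sesamolin. A test of 5 against 5 arrays does not exclude a difference in brightness. All 9 hepatocyte markers with a probe set were above the filter on the arrays, and of 5 kidney markers 0 passed it.

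The start of transcription of 6 of the 7 genes is in RefSeq's promoter table for the rat build GRCr8, and 4 of these starts are the outermost of the annotated gene. The 100 bases before those 4 starts are shown because the genes differ there in a feature that played no part in their choice. Capitals mark TATAAA, the core of a TATA box, on the sense strand of the gene.
Cyp2c11, chr1:246175116-246175215, plus strand: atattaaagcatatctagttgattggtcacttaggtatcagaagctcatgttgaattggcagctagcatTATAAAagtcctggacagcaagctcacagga
Cyp2a1, chr1:91359178-91359277, plus strand: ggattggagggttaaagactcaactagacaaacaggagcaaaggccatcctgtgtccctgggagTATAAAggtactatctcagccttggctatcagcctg
Cyp2e1, chr1:205269867-205269966, plus strand: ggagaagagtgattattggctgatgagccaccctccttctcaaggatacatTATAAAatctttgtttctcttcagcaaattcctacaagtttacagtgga
Cyp2c22, chr1:248980768-248980867, minus strand: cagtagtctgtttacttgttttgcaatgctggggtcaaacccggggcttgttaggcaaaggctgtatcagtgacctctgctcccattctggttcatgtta

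The first base of TATAAA lies 31 bases before the start in Cyp2c11, 36 in Cyp2a1 and 49 in Cyp2e1. In Cyp2c22 the 100 bases shown have none, and a match starts 197 bases before the start. Within 250 bases before the start, 5 of the 6 genes had TATAAA on the sense strand, against 8.06% of 33469 promoters of the same length. With its first base 20 to 40 bases before the start, 2 of the 6 had it, against 1.37%. Cyp2c23 was the gene of the 6 without a match. The nuclear receptor motif AGGTCA, searched on both strands, was found in Cyp2c11, Cyp2c22 and Cyp2e1, 3 of 6 against 14.1% of all promoters. CCAAT, on either strand, was found in 4 of 6 against 34.0%. TTCNNNGAA, the form of a STAT5 site, was found in 0 of 6 against 7.67%, GTTAAT, from HNF1 sites, in 0 of 6 against 6.45%, and DR1, a direct repeat of AGGTCA with a 1-base gap, in 0 of 6 against 0.0508%, each searched on both strands. A DR1 match also counts as a match of AGGTCA. The table's starts of Cyp2c13 and Cyp2c23 lie 51 and 14 bases inside their annotated genes. The TATAAA of Cyp2c13, 41 bases before the table's start, thus lies within the annotated gene and not upstream of it. These are matches of letters in a short window and describe nothing bound there. In RefSeq's gene order Cyp2a1 and Cyp2a2 are direct neighbours, as are Cyp2c13 and Cyp2c22.

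No change of any of the 7 genes with a lignan diet was shown under the test used. Levels are quantile normalized intensities, and differences are log2 differences from a limma fit to all 20 arrays, ± SE, with n = 5 rats per diet and p-values adjusted by the Benjamini-Hochberg method over 11576 genes. In the F test over the 4 diets 0 of 7 passed an adjusted p of 0.05, where 4.89% of all genes did, and the lowest adjusted p was 0.137, for Cyp2e1. Against the lignan-free diet, 0 of 7 passed with sesamin (0.432% of all genes passed), 0 of 7 with episesamin (5.12%) and 0 of 7 with sesamolin (6.24%). With shares of this size, 0 of 7 is near the background. At an unadjusted p below 0.05, limma gave 0 of the 7 with sesamin (7.46% of all genes), 2 with episesamin (19.7%) and 1 with sesamolin (20.3%). The median difference of the 7 genes was 0.01, 0.09 and 0.07 on the log2 scale for sesamin, episesamin and sesamolin, beside medians of -0.01, -0.02 and -0.01 over all genes.

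The precision of these values differed between genes. The 95% intervals of the 21 differences from the lignan-free diet reached at most a 1.17-fold change in either direction for Cyp2c11 and for Cyp2c13, 1.19-fold for Cyp2a2 and 1.24-fold for Cyp2c23. They reached 1.39-fold for Cyp2e1, 1.5-fold for Cyp2c22 and 1.53-fold for Cyp2a1. Changes larger than these lie outside the intervals. The intervals are not adjusted for the number of genes. Those of Cyp2e1 with episesamin and sesamolin and of Cyp2c22 with episesamin leave out 0, although none passed the adjusted threshold. All other intervals against the lignan-free diet include 0, so that smaller changes are not told apart from 0 by 5 rats per diet. The signals of 6 of the 7 lie high in the range of the array, at 25.7% to 68.4% of the highest normalized value, and that of Cyp2a1 at 5.46% to 11.4%. Whether such bright probe sets respond in proportion to their RNA was not tested.

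**Figure D1:**
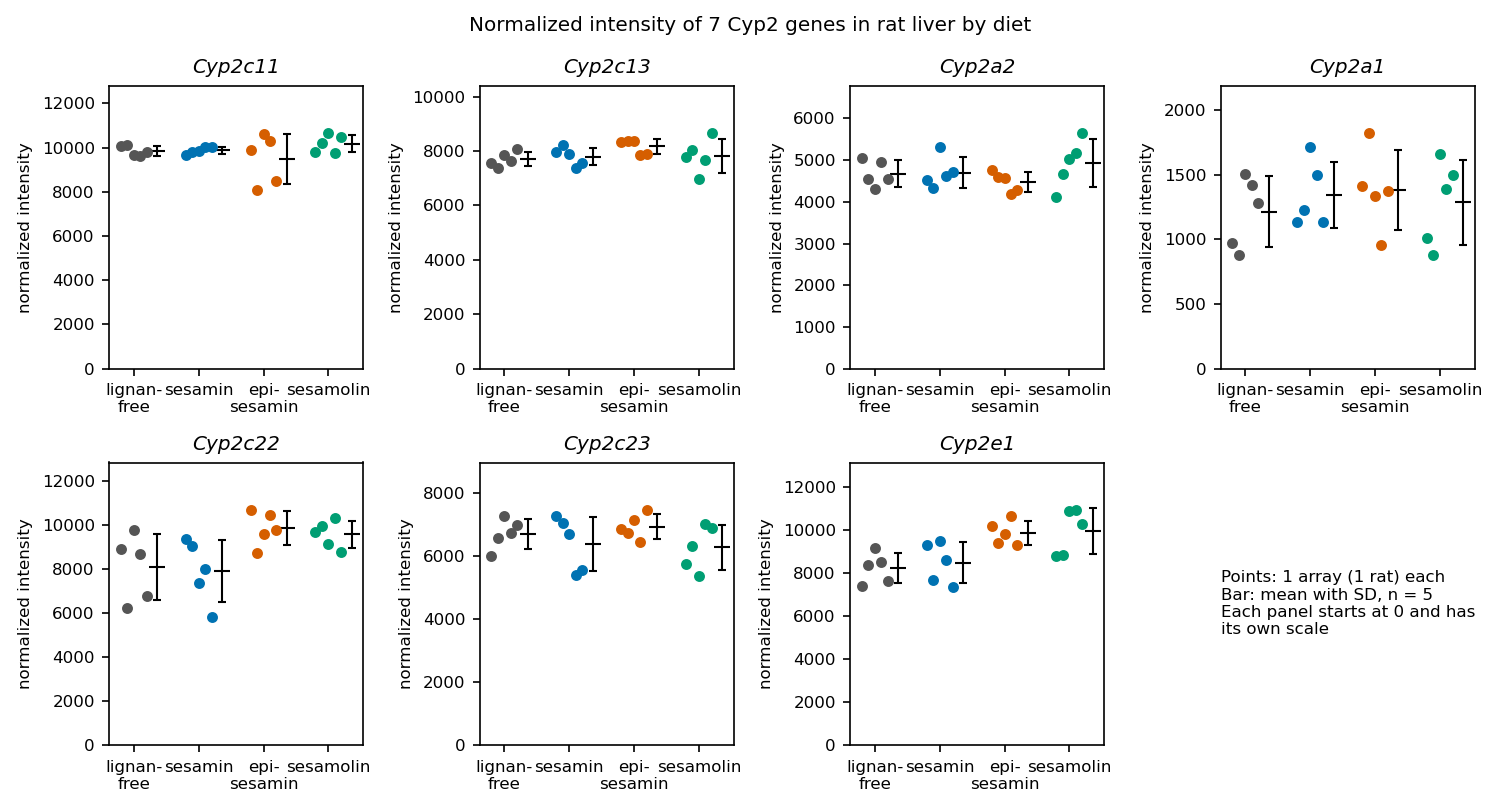
Normalized intensity (linear axis from 0, own scale per panel) of 7 Cyp2 genes in the liver of rats on 4 diets, 1 point per rat, with the mean and SD of 5 rats beside each group. The groups overlap in all panels except Cyp2e1, where the 5 episesamin values, from 9315, lie above the 5 lignan-free values, up to 9182.

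The male-specific genes had the 3 smallest within-diet SDs of the 7, at 0.09 for Cyp2c11, 0.07 for Cyp2c13 and 0.12 for Cyp2a2 on the log2 scale. Among the 883 genes at least as bright as the dimmest of the 7, with a median SD of 0.13, 22.4%, 8.95% and 42.2% had a smaller SD. Small spreads were also seen in other bright Cyp2 genes. The limma SE of a difference was 0.068 for Cyp2b3 and Cyp2d2 and 0.07 for Cyp2c7. It was 0.076 for Cyp2c11, 0.068 for Cyp2c13 and 0.087 for Cyp2a2. Cyp2c12 had a wider one, 0.26. Cyp2c11, the major male-specific P450 and a testosterone hydroxylase, read 10061, 10128, 9671, 9612 and 9805 in the 5 lignan-free rats, a mean of 9855 ± 230.3 (SD, n = 5). With sesamin it read 9671, 9805, 9843, 10011 and 10011. With episesamin it read 9886, 8093, 10594, 10308 and 8478, and with sesamolin 9805, 10182, 10652, 9769 and 10486. The sesamin rats lie inside the lignan-free range. The episesamin rats spread on both sides of it, with replicates 2 and 5 low, and the group's coefficient of variation was 11.8% against 2.34% without lignan. The differences from the lignan-free diet were 0.00 ± 0.08, -0.07 ± 0.08 and 0.05 ± 0.08 for sesamin, episesamin and sesamolin (limma adjusted p = 0.995, 0.687 and 0.783).

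Cyp2c13, another male-specific P450 of the Cyp2c cluster, had lignan-free values from 7394 to 8065 with a median of 7627. Its episesamin values ran from 7845 to 8383 with a median of 8342, its sesamin values from 7394 to 8211 and its sesamolin values from 6964 to 8661. The episesamin rats all lie above the lignan-free median, and 2 of them fall within the lignan-free range. The difference with episesamin was 0.09 ± 0.07 (limma adjusted p = 0.519; exact permutation p = 0.0397 before correction for the number of genes). With sesamin and sesamolin it was 0.02 ± 0.07 and 0.02 ± 0.07 (limma adjusted p = 0.981 and 0.898). Its probe set carries the suffix that marks possible matches to several transcripts, so related Cyp2c messages may add to its signal.

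Cyp2a2, a male-specific testosterone hydroxylase, had a lignan-free mean of 4678 ± 315 (SD, n = 5). Its means were 4703 ± 368 with sesamin, 4482 ± 241 with episesamin and 4930 ± 571 with sesamolin, and the ranges of the 4 groups overlap. Its differences were 0.01 ± 0.09, -0.06 ± 0.09 and 0.07 ± 0.09 (limma adjusted p = 0.992, 0.753 and 0.699). Cyp2a1, a testosterone 7alpha-hydroxylase that is not male-specific, varied more from rat to rat on its own probe set than the other 6 genes. Its lignan-free values ran from 878 to 1504, a 1.71-fold range, and its episesamin values from 959 to 1821, a 1.90-fold range. Its within-diet SD was 0.33 on the log2 scale, and 93.8% of the genes as bright or brighter had a smaller one. Differences of 0.16 ± 0.20, 0.19 ± 0.20 and 0.07 ± 0.20 with sesamin, episesamin and sesamolin did not exceed this spread (limma adjusted p = 0.929, 0.653 and 0.879). The probe set annotated to both genes gave 4107 ± 289 without lignan and 4159 ± 445, 4089 ± 188 and 4180 ± 530.3 with sesamin, episesamin and sesamolin (SD, n = 5).

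Cyp2c23, an epoxygenase that turns arachidonic acid into epoxy fatty acids, had lignan-free values from 5992 to 7270 with a median of 6720. Sesamin rats ranged from 5396 to 7270, episesamin rats from 6465 to 7480 and sesamolin rats from 5363 to 7029. All 4 ranges overlap. The differences were -0.08 ± 0.10, 0.05 ± 0.10 and -0.10 ± 0.10 (limma adjusted p = 0.929, 0.834 and 0.617).

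Cyp2e1, which oxidises ethanol, acetone and many small solvents and is densest around the central vein, came closest to a difference. It read 7422, 8383, 9182, 8543 and 7658 in the lignan-free rats and 9315, 7689, 9484, 8626 and 7369 in the sesamin rats. It read 10224, 9410, 9805, 10652 and 9315 in the episesamin rats and 8803, 8850, 10903, 10965 and 10271 in the sesamolin rats. The episesamin rats all lie above the lignan-free rats, a pattern that 3.81% of all genes had in this comparison. Of the sesamolin rats, 3 of 5 lie above the highest lignan-free rat, and all 5 lie above the lignan-free median. The means were 8238 ± 708 without lignan, 8497 ± 947 with sesamin, 9881 ± 561 with episesamin and 9958 ± 1069 with sesamolin (SD, n = 5).

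The log2 difference of Cyp2e1 was 0.26 ± 0.10 with episesamin, a 1.20-fold level with a 95% interval from 1.05 to 1.38 (limma adjusted p = 0.121). With sesamolin it was 0.27 ± 0.10, 1.21-fold with an interval from 1.05 to 1.39 (adjusted p = 0.107), and with sesamin 0.04 ± 0.10 (adjusted p = 0.961). None passed the threshold. Exact permutation of the episesamin and lignan-free rats gave p = 0.00794, the smallest that 5 against 5 rats allow, before any correction for the number of genes, and for sesamolin it gave p = 0.0317. The p with episesamin follows from the complete separation given above and adds nothing to it. The call depends on the variance model: with limma's trended and robust eBayes the adjusted p was 0.0451 for episesamin and 0.0367 for sesamolin, and with array weights 0.0912 and 0.0455. Without normalization between arrays the differences were 0.14 and 0.17 (adjusted p = 0.635 and 0.585).

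Summed marker levels of other cell types are given beside these values, and they differed in how they compared between diets. The summed level of the 10 Kupffer cell and macrophage markers above the filter, out of 14 listed, ran from 7476 to 8703 without lignan, 5264 to 8473 with sesamin, 5397 to 6492 with episesamin and 4104 to 5967 with sesamolin, and the last 2 ranges lie below the lignan-free range. The 14 stellate cell and fibroblast markers summed to between 4517 and 6813 without lignan, 3929 and 4571 with sesamin, 3888 and 4693 with episesamin and 3375 and 4559.5 with sesamolin, and these ranges overlap the lignan-free range. The 10 endothelial markers above the filter summed to between 3149.9 and 3819, 3061 and 3379, 2647 and 3055, and 2512 and 3131 in the same order, and the episesamin and sesamolin ranges lie below the lignan-free range. Of all genes taken singly, 3.04% with episesamin and 3.22% with sesamolin lay below the lignan-free rats in this way. The sums were not tested. Of 6 bile duct markers with a probe set 5 passed the filter, and all 6 were summed. Their sums ran from 524 to 671 without lignan, 468 to 692 with sesamin, 506 to 767 with episesamin and 560 to 814 with sesamolin. The medians were 569, 527, 673 and 611 in the same order. Of 8 lymphocyte and neutrophil markers with a probe set 6 passed, and all 8 were summed. In the same order of diets their sums ran from 205 to 360, 201 to 451, 169 to 249 and 161 to 294. The 3 red blood cell markers ran from 9286 to 10953, 8273 to 10377, 9386 to 12309 and 9022 to 11341. In both lists the lignan ranges overlapped the lignan-free range. All these sums add linear intensities, so the brightest genes of a list weigh most. Over the 20 arrays Col3a1, of the stellate cell and fibroblast list, had a mean of 2472. Hbb, of the red blood cell list, had a mean of 9572. Of bile duct markers, Epcam and Anxa2 were above the filter level on 20 arrays, Krt19 and Spp1 on 19, Cftr on 6 and Krt7 on 2. Of lymphocyte and neutrophil markers, Ptprc and S100a9 were above it on 20 arrays, Ms4a1 on 18, Nkg7 on 17, S100a8 on 16, Cd3e on 11, Cd8a on 2 and Cd3d on 0. The 9 hepatocyte markers summed to between 91751 and 97142 without lignan, 87440 and 93767 with episesamin and 89725 and 95677 with sesamolin. In liver RNA, fewer cells of a type and less RNA per cell cannot be told apart. The part of these marker levels in the Cyp2e1 values was not tested.

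Cyp2c22, for which RefSeq lists the name Cyp2c70 among its synonyms, had a wide lignan-free spread with values of 8921, 6239, 9769, 8698 and 6792. The sesamin rats read 9370, 9048, 7394, 8027 and 5847, the episesamin rats 10713, 8751, 9612, 10486 and 9805, and the sesamolin rats 9714, 9957, 9126, 10308 and 8803. The lowest values all come from lignan-free and sesamin rats, and the groups overlap at the top. The difference with episesamin was 0.31 ± 0.13, a 1.24-fold level with an interval from 1.02 to 1.5 (limma adjusted p = 0.205), and with sesamolin 0.26 ± 0.13 (adjusted p = 0.276). With sesamin it was -0.03 ± 0.13 (adjusted p = 0.984). Without normalization between arrays the values with episesamin and sesamolin were 0.15 and 0.16.

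**Figure D2:**
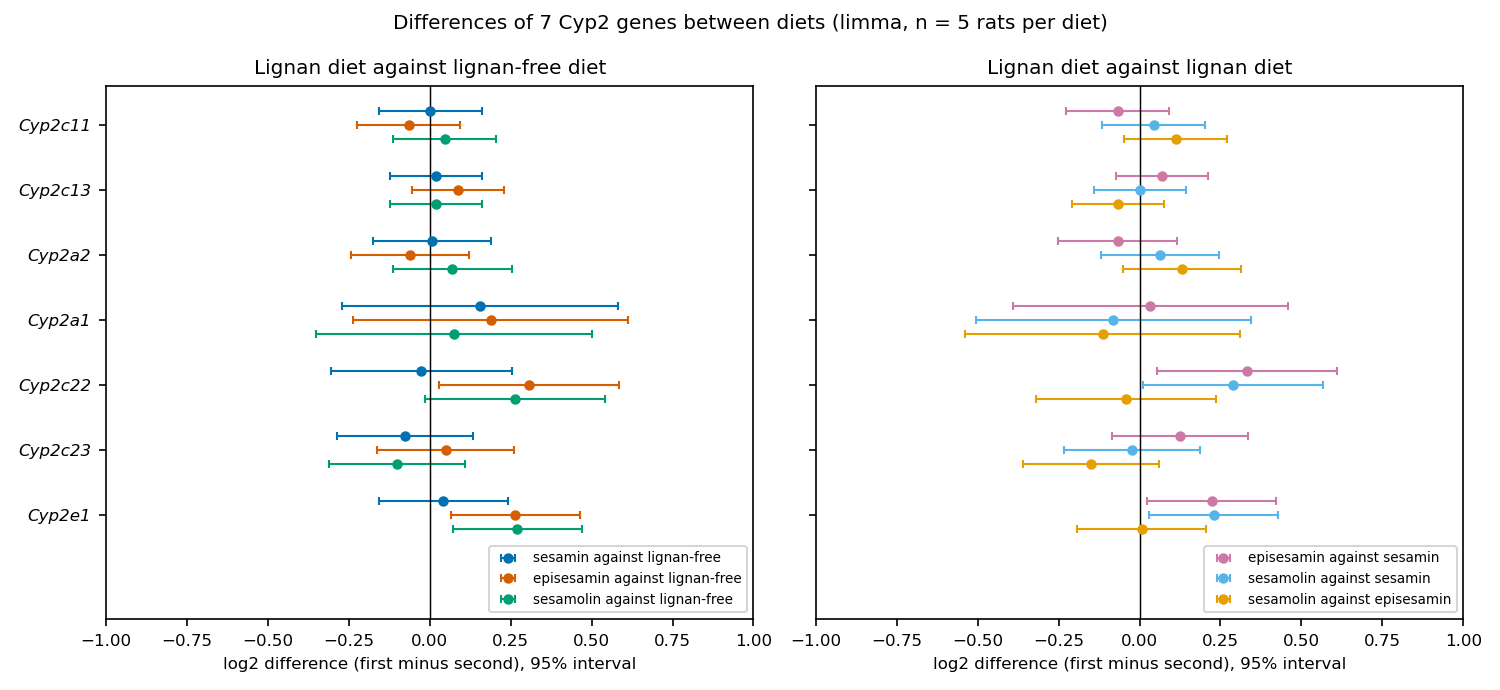
Log2 differences (points) with 95% intervals (bars) of 7 Cyp2 genes, each lignan diet against the lignan-free diet on the left and each pair of lignan diets on the right, from a limma fit with 5 rats per diet. The intervals of Cyp2c11 and Cyp2c13 are narrow and cross 0, and those of Cyp2e1 with episesamin and sesamolin lie above 0, with adjusted p = 0.121 and 0.107.

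The 3 lignans were fed at the same dose and for the same time, which allows 3 pairwise comparisons of the compounds. Of 7 genes, 0 passed between the epimers episesamin and sesamin, where 1.23% of all genes did, 0 between sesamolin and sesamin (1.81%), and 0 between sesamolin and episesamin (0%). At an unadjusted p below 0.05 limma gave 2, 2 and 0 of the 7, and 12.9%, 14.5% and 5.72% of all genes. The 2 were Cyp2c22 and Cyp2e1 in both comparisons with sesamin. Cyp2e1 differed by 0.22 ± 0.10 between episesamin and sesamin, 1.17-fold with an interval from 1.02 to 1.34 (adjusted p = 0.325), and by 0.23 ± 0.10 between sesamolin and sesamin, with an interval from 1.02 to 1.35 (adjusted p = 0.26). Cyp2c22 differed by 0.33 ± 0.13 between the epimers, 1.26-fold with an interval from 1.04 to 1.53 (adjusted p = 0.281), and by 0.29 ± 0.13 between sesamolin and sesamin (adjusted p = 0.318). These comparisons share the sesamin rats with each other.

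Complete separation of 2 diets was seen for 1 of the 42 differences, Cyp2e1 with episesamin. Over all genes, all 5 rats of the lignan group lay above all 5 lignan-free rats in 1.09% with sesamin and 3.7% with sesamolin, and below them in 0.821%, 3.04% and 3.22% with sesamin, episesamin and sesamolin. For episesamin against sesamin the shares were 2.15% above and 1.49% below, for sesamolin against sesamin 2.3% and 2%, and for sesamolin against episesamin 0.406% and 0.389%. Of the 7 genes, 0 were separated in these comparisons.

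Between sesamolin and episesamin, the 7 differences ran from -0.15 ± 0.10 for Cyp2c23 to 0.13 ± 0.09 for Cyp2a2, all with an adjusted p of at least 0.944. Their intervals span folds from 0.69 to 1.24, the widest being that of Cyp2a1. For Cyp2e1 the difference was 0.01 ± 0.10 with an interval from 0.87 to 1.15-fold. For Cyp2c11 it was 0.11 ± 0.08 with an interval from 0.97 to 1.21-fold. These intervals bound a difference between the compounds and do not show that they act alike.

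Among the other Cyp2 genes, 15 of 18 with a probe set of their own passed the filter, and 5 of 15 passed the F test. With episesamin 2 of 15 rose and 2 fell, with sesamolin 3 rose and 2 fell, and with sesamin 1 rose and 0 fell. Over all genes, 5.12%, 6.24% and 0.432% passed in these comparisons in either direction, and 4.89% passed the F test. The medians were 0.01, 0.02 and 0.02 with episesamin, sesamolin and sesamin. Cyp2j4, of the epoxygenase subfamily Cyp2j, rose from 439 ± 119 to 869.9 ± 159, 1582 ± 155 and 1751 ± 320 with sesamin, episesamin and sesamolin (SD, n = 5). Its log2 changes were 1.0 ± 0.17, 1.87 ± 0.17 and 2.0 ± 0.17 (limma adjusted p = 0.0057, 6.91e-07 and 2.64e-07). Cyp2j3 rose by 0.44 ± 0.10 with episesamin and 0.44 ± 0.10 with sesamolin. Cyp2c6v1, a further gene of the Cyp2c subfamily, was at 0.23 ± 0.08 with episesamin (adjusted p = 0.0839) and rose by 0.29 ± 0.08 with sesamolin (adjusted p = 0.0291).

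In the other direction, Cyp2t1 fell by 0.58 ± 0.15 with episesamin and by 0.74 ± 0.15 with sesamolin, and Cyp2f4 fell by 0.54 ± 0.09 and 0.60 ± 0.09. Cyp2c7, which is higher in females, and Cyp2d2 had values between -0.03 and 0.05 with all 3 lignans (adjusted p at least 0.721). Whether any of these genes differs from the 7 in its change was not tested.

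**Figure D3:**
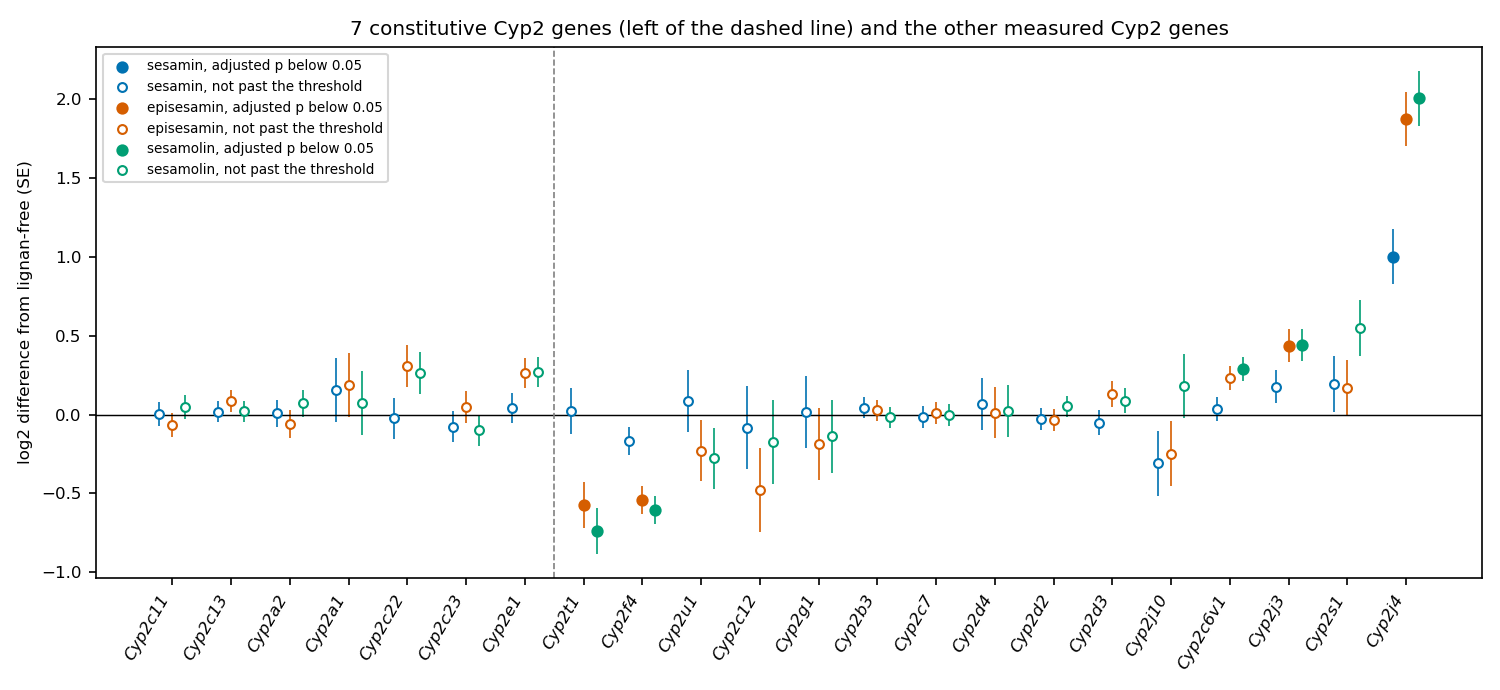
Log2 difference from the lignan-free diet (points) with SE (bars) for 7 constitutive Cyp2 genes, left of the dashed line, and 15 other Cyp2 genes ordered by their sesamolin value; filled points passed an adjusted p of 0.05 in limma. All 21 points of the 7 genes are open, and Cyp2j4 reaches 2.0 with sesamolin.

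The partners of the P450s were measured in the same rats. Over all genes, 0.432% passed with sesamin, 5.12% with episesamin and 6.24% with sesamolin. In lists this short, 1 call with episesamin or sesamolin is near those shares. Of 6 electron donors and membrane partners, 2 rose with episesamin, 2 with sesamolin and 0 with sesamin, and none fell (list medians 0.18, 0.13 and 0.10). Por, the reductase that feeds electrons to all microsomal P450s, rose by 0.81 ± 0.16 with episesamin and 0.58 ± 0.16 with sesamolin. Pgrmc2, a heme-binding membrane protein, rose by 0.71 ± 0.09 and 0.68 ± 0.09 (limma adjusted p = 5.34e-05 and 8.18e-05), and Cyb5a, cytochrome b5, was at 0.23 and 0.11 (adjusted p = 0.135 and 0.506). Of 12 genes of heme synthesis and breakdown, 1 rose with episesamin, 2 with sesamolin and 0 with sesamin (list medians 0.06, 0.03 and 0.01). Alas1, the rate-limiting enzyme of heme synthesis in liver, rose by 0.53 ± 0.16 with sesamolin (adjusted p = 0.049) and was at 0.51 ± 0.16 with episesamin (adjusted p = 0.0658). Blvrb, a biliverdin reductase, rose by 0.61 ± 0.14 with episesamin and 0.58 ± 0.14 with sesamolin.

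Genes with a sex bias of their own and genes of growth hormone signalling were counted next, against shares over all genes of 0.432% with sesamin, 5.12% with episesamin and 6.24% with sesamolin. In lists this short, 0 or 1 call is near those shares. Of 8 other male-biased genes, 0 passed in any comparison with the lignan-free diet (list medians 0.10, -0.06 and 0.13 for sesamin, episesamin and sesamolin). Among them Cyp3a2, a male-specific steroid hydroxylase, was at 0.34 ± 0.10 with episesamin and 0.31 ± 0.10 with sesamolin (adjusted p = 0.0603 and 0.0788), and Hsd3b5 at -0.67 ± 0.26 and -0.62 ± 0.26 (adjusted p = 0.158 and 0.187). Of 9 genes listed as female-biased, 1 fell with episesamin and 1 with sesamolin, and 0 passed with sesamin (list medians 0.01, -0.16 and -0.01). That gene was Hao2, a hydroxy acid oxidase of peroxisomes, at -0.43 ± 0.12 and -0.40 ± 0.12 (adjusted p = 0.0386 and 0.0472). Lignan-free means of the 9 ran from 14.45 for Sult2a2 to 9660 for Cyp2c7, with 6216 for Sult1e1 and 5303 for Cyp2c12. All rats were male, so the sex bias of these probe sets was not tested. Of 13 genes of growth hormone signalling, 0 passed with sesamin and with episesamin, and 2 fell with sesamolin (list medians 0.02, -0.03 and 0.07). These were Igfbp3, a carrier of IGF1, at -0.63 ± 0.14 (adjusted p = 0.00957) and the receptor kinase Jak2 at -0.64 ± 0.15 (adjusted p = 0.0177), a dim probe set with a mean of 43.8 without lignan and 26.7 with sesamolin. The growth hormone receptor Ghr was at 0.16 with episesamin and 0.26 with sesamolin (adjusted p = 0.272 and 0.0625), and Igf1 at -0.03 and -0.08 (adjusted p = 0.871 and 0.602).

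Of 15 hepatocyte transcription factors, 1 rose with episesamin and 0 passed with the other lignans. The list medians were -0.01 with episesamin, -0.12 with sesamolin and -0.07 with sesamin. Over all genes 5.12% passed with episesamin, so 1 of 15 is near that share. The 1 was Nr1i3, the receptor CAR, at 1.19 ± 0.31 with episesamin (adjusted p = 0.0322), 1.01 ± 0.31 with sesamolin (adjusted p = 0.0605) and 0.98 ± 0.31 with sesamin (adjusted p = 0.359). Between episesamin and sesamin it differed by 0.20 ± 0.31 (adjusted p = 0.834), so that no difference between the lignans was shown. Hnf4a, which drives many liver P450 genes, was at -0.22 and -0.17 with episesamin and sesamolin (adjusted p = 0.277 and 0.397).

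Genes of the pathways in which single members act were counted as well. The shares over all genes were 0.432% with sesamin, 5.12% with episesamin and 6.24% with sesamolin. Around the epoxygenase Cyp2c23, of 17 genes of epoxy fatty acid and arachidonate metabolism 3 rose with sesamin and 0 fell, 4 rose and 1 fell with episesamin, and 4 rose and 2 fell with sesamolin (list medians -0.16, -0.05 and 0.12). Beside Cyp2j3 and Cyp2j4, these included the fatty acid hydroxylase Cyp4a1, at 1.45, 1.94 and 2.01, and Cyp4a3, at 0.84, 1.0 and 1.04, which passed with all 3 lignans. Ptgs1, a cyclooxygenase, fell by 0.54 with episesamin and 0.64 with sesamolin, and Cyp4f1 fell by 0.37 with sesamolin. Around the steroid hydroxylases, of 14 genes of steroid and retinoid metabolism 4 rose and 1 fell with episesamin, 3 rose and 2 fell with sesamolin, and 0 passed with sesamin (list medians 0.00, 0.07 and 0.02). Aldh1a1, a retinaldehyde dehydrogenase, rose by 2.51 ± 0.34 and 2.26 ± 0.34, and Hsd17b4, a peroxisomal enzyme that acts on steroids and fatty acids, by 0.68 and 0.61. Hsd11b1, which regenerates corticosterone, was at -0.60 ± 0.15 and -0.61 ± 0.15 (adjusted p = 0.0233 and 0.019), and Rdh10, a retinol dehydrogenase, fell by 0.35 with sesamolin.

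Around Cyp2e1, of 7 genes of alcohol and acetaldehyde metabolism 1 rose with sesamin, 2 rose and 1 fell with episesamin, and 1 rose and 1 fell with sesamolin (list medians 0.08, 0.27 and 0.18). Over all genes, 0.432%, 5.12% and 6.24% passed with sesamin, episesamin and sesamolin. In this list and the 2 below, 1 call with episesamin or sesamolin is near those shares. Aldh3a2, a fatty aldehyde dehydrogenase, rose by 0.34 ± 0.07, 0.53 ± 0.07 and 0.45 ± 0.07. Adh4, an alcohol dehydrogenase, rose by 0.92 ± 0.26 with episesamin (adjusted p = 0.0432), and Aldh1b1, a mitochondrial aldehyde dehydrogenase, fell by 1.5 ± 0.40 (adjusted p = 0.0367). Aldh2, the mitochondrial acetaldehyde dehydrogenase, fell by 0.60 ± 0.16 with sesamolin (adjusted p = 0.0287). Of 8 other pericentral genes, 1 fell with episesamin and 1 with sesamolin, in both cases Gulo at -0.43 ± 0.08 and -0.36 ± 0.08, and 0 passed with sesamin (list medians -0.19, -0.18 and -0.13). Of 12 periportal genes, 2 fell with episesamin and 2 with sesamolin, Ass1 and Cyp2f4, and 0 passed with sesamin (list medians -0.28, -0.24 and 0.03). Ass1, a urea cycle enzyme, was at -0.60 ± 0.12 and -0.52 ± 0.12.

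Correlations between the 7 genes were taken over the rats of all 4 diets together. Over 20 arrays, 23 pairs were compared, 21 among the 7 genes and 2 with the probe set annotated to both Cyp2a1 and Cyp2a2. Of these, 4 passed an adjusted p of 0.05 (permutation of rats, two-sided, adjusted over all 23 pairs). The pairs with the shared probe set are 2 of the 4. They read messages of the same gene, so their correlation was to be expected and describes no relation between different genes. Cyp2c13 and Cyp2c23 had a Pearson r of 0.66 (p = 0.00153, adjusted p = 0.0176) and a Spearman rho of 0.61 (p = 0.00494, adjusted p = 0.0379). Without the 2 rats farthest from the median of Cyp2c13 r was 0.57, and for deviations from the diet means it was 0.67. Cyp2c22 and Cyp2e1 had r = 0.61 (p = 0.00456, adjusted p = 0.0262) and rho = 0.59 (p = 0.0077, adjusted p = 0.0443). Without the 2 farthest rats r was 0.50, and for deviations from the diet means 0.31. The permutation moved rats between diets, so diet differences that a pair shares add to its r and p. The r for deviations from the diet means was not tested.

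The shared probe set followed Cyp2a2 with r = 0.76 (permutation p = 1e-04, adjusted p = 0.0023), rho = 0.77 (p = 8e-05, adjusted p = 0.00184) and r = 0.66 without the 2 farthest rats. It followed Cyp2a1 with r = 0.62 (permutation p = 0.00313, adjusted p = 0.024), rho = 0.65 (p = 0.00228, adjusted p = 0.0262) and r = 0.63 without the 2 farthest. In the 14 arrays of mean raw intensity of at least 200, r was 0.67 for Cyp2c13 and Cyp2c23 (adjusted p = 0.0637), 0.66 for Cyp2c22 and Cyp2e1 (0.0637), 0.63 for Cyp2a1 and the shared probe set (0.0707) and 0.85 for Cyp2a2 and the shared probe set (0.00276). The male-specific genes Cyp2c11 and Cyp2c13 had r = -0.23 (permutation p = 0.318, adjusted p = 0.61), and with median scaling of the arrays 0.46 (adjusted p = 0.139) and in the 14 brighter arrays -0.66 (adjusted p = 0.0637), so that the sign of this relation turned with the scaling. Cyp2c11 and Cyp2a2 had r = 0.28 (permutation p = 0.235, adjusted p = 0.491).

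**Figure D4:**
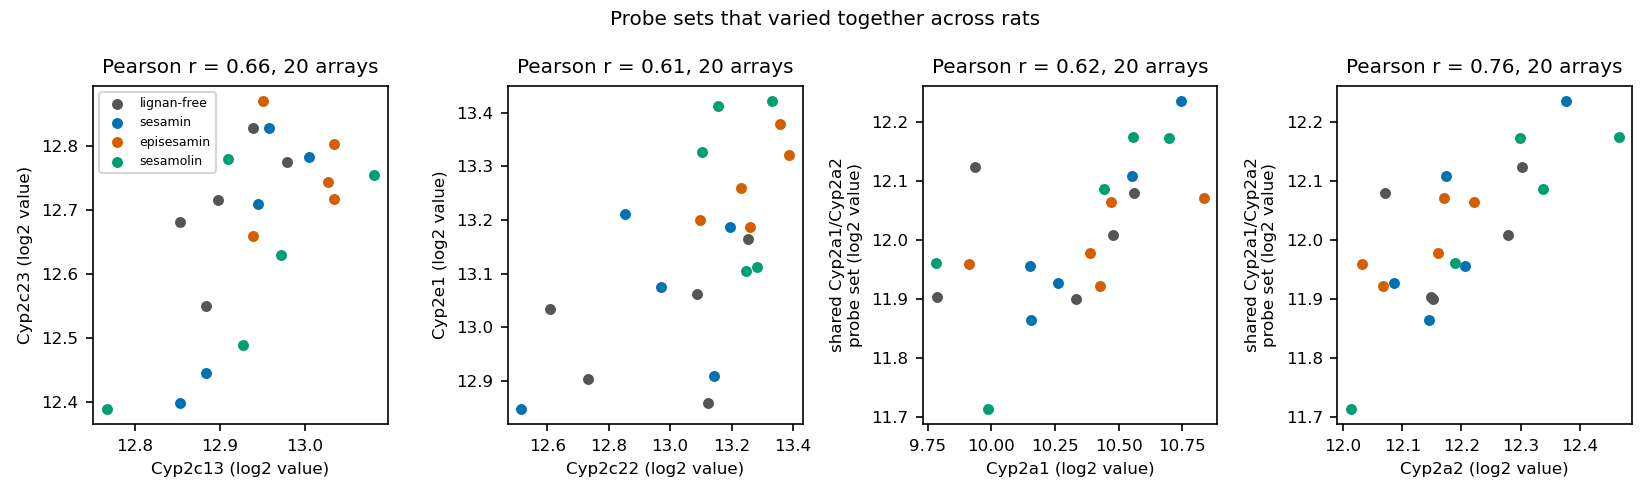
Log2 normalized values of the 4 pairs of probe sets that passed, 1 point per rat and 5 rats per diet, with the diet in colour. Pearson r over 20 arrays is 0.66, 0.61, 0.62 and 0.76 from left to right, and in the second panel the low values are lignan-free and sesamin rats.

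The genes most like each of the 7 were named by the highest Pearson r over the 20 arrays, as a description with no test, since each is the best of all genes tested. Cyp2c11 was most like Dhrs7l1 (r = 0.82), Msmp (0.79) and Obp3 (0.78), the last an abundant secreted protein of male rat liver and a member of the male-biased list. For deviations from the diet means Dhrs7l1 again came first, at 0.86. Cyp2e1 was most like Cela1 (0.86), the carboxylesterase Ces2c (0.86) and Aldh1a1 (0.82), and for deviations from the diet means Plin1 (0.80) and Cela1 (0.77). Cyp2c13 was most like Ttr, the carrier of thyroid hormone and retinol-binding protein (0.80), Gli4 (0.77) and Ift52 (0.75), and by deviations like Ugp2 (0.91). The genes nearest to Cyp2c22 were Utp14a (0.86), Polr1d (0.82) and Cldn5 (0.80), and to Cyp2c23 Drd4 (0.88), Ift52 (0.75) and Rcc1 (0.71). For Cyp2a1 they were Hddc2 (0.79), Gabbr1 (0.74) and Lpo (0.72), and for Cyp2a2 Prom2 (0.69), Slc2a6 (0.67) and Itpr2 (0.66). Several of these are dim: Drd4 and Prom2 had mean intensities of 19.8 and 16.3, close to the filter level of 17.8.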

How the data were processed

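The authors deposited 1 linear intensity per probe set and array (31099 probe sets, 20 arrays). The software that made the values is not named in the sources used here. Per the labels' protocols, biotin-labelled cRNA of each rat was hybridised on its own. Array means of the deposited intensity differ, so the arrays were brought to common quantiles. Values were taken to log2 after adding 5.85, their 20th percentile. Probe sets with 1 gene symbol (20832, of which 6 controls were left out) were kept where they exceeded 17.8, the 40th percentile, on at least 5 arrays, and the brightest stood for its gene. Probe sets with several symbols (436) or none listed (9831) were not tested. A limma 3.58.1 model (R 4.3.3) with 4 diet means gave 6 comparisons and an F test, with two-sided tests and 95% intervals, and the fit was tested on simulated data. Correlations used 100000 permutations. The 7 genes, the lists and the tests were chosen with earlier results of these data known. The rule for named genes took, per list, up to 3 with the lowest F test p and up to 2 of the highest level that did not pass, and per gene the 3 most alike. Not all are printed, and others (Cyp2j3, Cyp2c6v1, Cyp4f1, Ptgs1, Rdh10, Aldh1b1 among them) were named after their values were seen. The lists cover other Cyp2 genes, P450 partners, heme, growth hormone signalling, male- and female-biased genes, transcription factors, epoxy fatty acids, steroids and retinoids, alcohol, and pericentral and periportal genes. Sequences are from RefSeq (GRCr8), in which 6 of the 7 genes were matched. The number of arrays limits the precision. Alternatives covered scaling, offset, filter, probe set choice, the variance model, array weights, covariates, the replicate number as a block and leaving out arrays.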

Additional observations from a re-analysis of the deposited data

How the results depend on the processing

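The 42 differences of the 7 genes were recomputed under 36 alternatives, 20 of which left out 1 array. Of these 1512 values, 3 passed an adjusted p of 0.05, all of Cyp2e1. With trended and robust eBayes 1 gene passed with episesamin, 1 with sesamolin and 1 in the F test, and with array weights 1 with sesamolin (log2 difference 0.31). In the other alternatives, leaving out any 1 array included, 0 of 7 passed in each comparison. The difference of Cyp2e1 with episesamin ran from 0.23 to 0.30 (adjusted p from 0.0872 to 0.24) and with sesamolin from 0.23 to 0.31 (0.0779 to 0.208) when 1 array was left out. Of the 42 differences, 22 changed sign under at least 1 alternative, and the largest of these was 0.19. Those of Cyp2e1 and Cyp2c22 for episesamin and sesamolin against the lignan-free and sesamin diets kept their sign throughout.

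With the replicate number as a block, 0 of 7 genes passed in any comparison, Cyp2e1 had an adjusted p of 0.0747 with episesamin and 0.0653 with sesamolin, and the calls over all genes went from 593 to 697 and from 722 to 858. The labels give no pairing, and deviations of same-numbered arrays correlated between -0.0585 and 0.246. For 10 of 20 arrays, the closest array among those of the other diets had their own number. Over all genes, the calls without normalization between arrays fell to 18, 262 and 264 with sesamin, episesamin and sesamolin. For 3 of the 4 called correlations the adjusted p rose above 0.05 in the 14 brighter arrays, with fewer arrays compared. Median scaling and the restriction to brighter arrays were chosen for the correlations after the data were seen.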
